A study of Saccharomyces cerevisiae x Saccharomyces kudriavzevii and Saccharomyces cerevisiae with 12 samples.

Results

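Expression was examined for the open reading frames (ORFs) that encode the large subunit ribosomal proteins running from RPL1A to RPL33B, a list of 58 systematic names. The members were listed by name and not by any measured value, though earlier results of these data were known when the list was chosen. Of the 58 names, 57 were found among the 6178 ORFs of the table. YFR032C-A was not analysed here. The table pairs no gene symbol with an identifier, so members are called here by their systematic names.

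Two-colour arrays of S288c ORFs were used to compare 2 wine hybrids, Lalvin W27 and VIN7, which descend from S. cerevisiae and S. kudriavzevii, with the S. cerevisiae wine strain Lalvin T73. Tempranillo must was fermented at 12 or 28 °C and cells were taken as stationary phase began. Each of the 4 groups (W27 at 12 °C, VIN7 at 12 °C, W27 at 28 °C and VIN7 at 28 °C) held 3 arrays, called A, B and C, and every array received Cy3-labelled cDNA of a hybrid and Cy5-labelled cDNA of T73 without a dye swap. The labels call the arrays biological replicates, whereas the methods describe 2 independent fermentations and 3 hybridizations, so p-values measure the spread between arrays, which may be partly technical. For the W27 arrays at 28 °C the source label gives 12 °C, while the title and the description give 28 °C, which was used. Both hybrids carry S. kudriavzevii alleles besides those of S. cerevisiae, and the ratio does not separate them. Every value below is a log2 ratio of hybrid over T73, a direction that is likely but not stated with the data: it was taken from the dyes and from the direction the study gives for a pair of other ORFs. T73 was fermented at each temperature, so a difference between temperatures is a difference of ratios and not of levels.

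The proteins of the large subunit surround the ribosomal RNA that joins amino acids, and they are made together with those of the small subunit. In yeast the genes of both subunits are among the most strongly transcribed during growth. Their transcription depends on Rap1, Fhl1 and Ifh1, and it is lowered when nutrients run out or cells are stressed. After the whole-genome duplication most of these genes were kept as a pair of copies whose proteins are identical or nearly so. Such copies may cross-hybridize on ORF arrays.

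No member passed the test across all ORFs in any of the 9 comparisons made with limma (Benjamini-Hochberg adjusted p under 0.05), so the results are given by arrays, counts and medians. At 12 °C most members lay below T73 in VIN7, with a median over the members of -0.54, while a small group of members lay far above it in both hybrids. At 28 °C the members had a median of -0.14 in W27 and 0.47 in VIN7. Over all ORFs the medians of the same groups were 0.00, 0.08 and 0.10. The high level in VIN7 at 28 °C was seen on array C and, for fewer members, on array B, and the direction of array C is not settled.

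**Figure D1:**
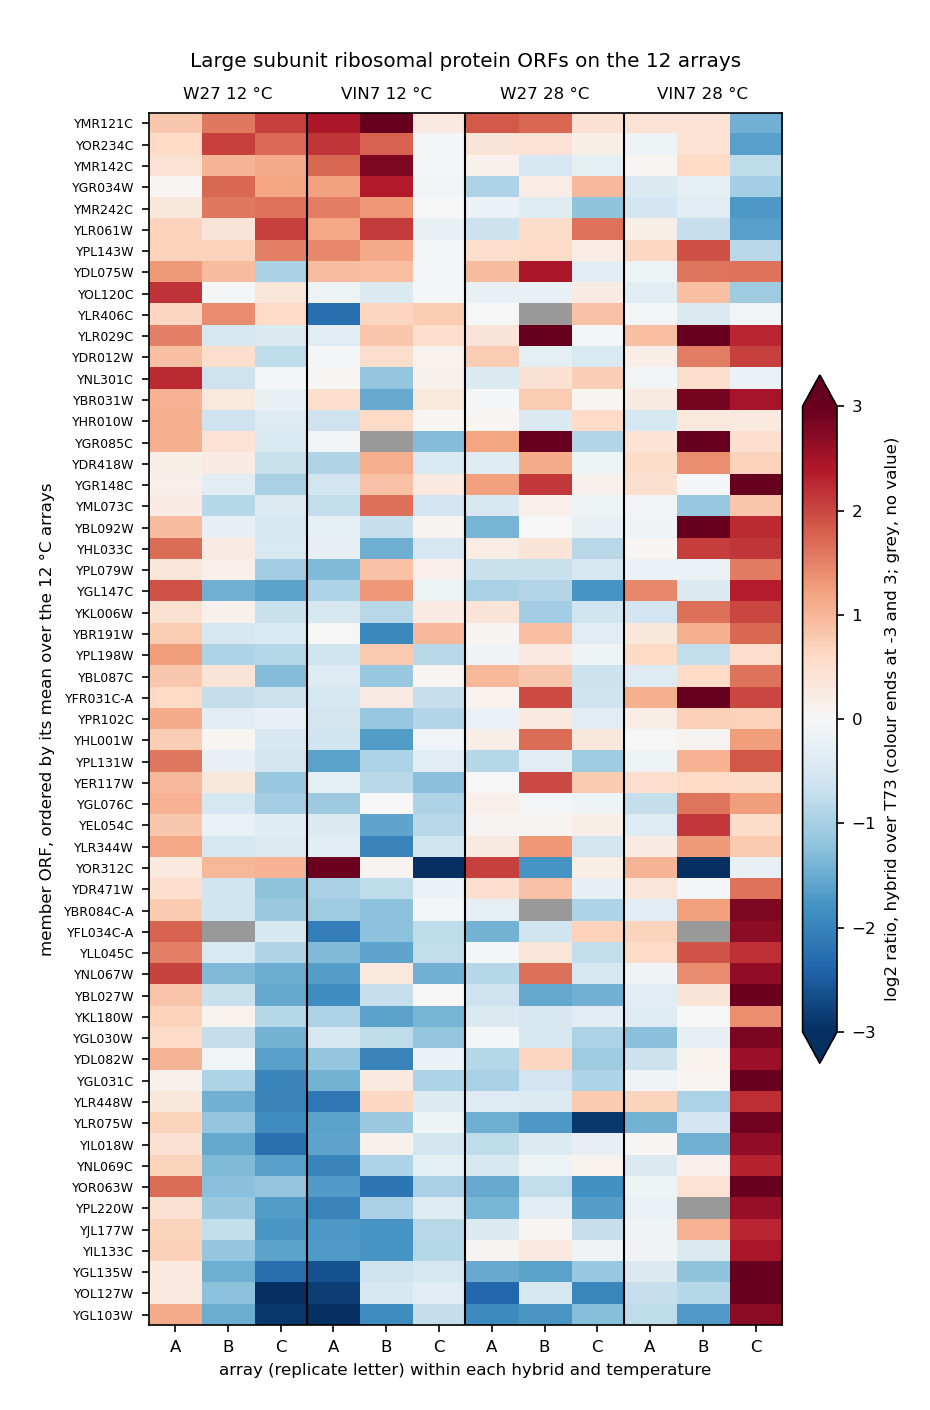
Log2 ratio of hybrid over T73 for the 57 members (vertical axis, ordered by their mean over the 12 °C arrays) on the 12 arrays (horizontal axis); colours end at -3 and 3 and grey marks no value. The 7 uppermost members are above 0 on arrays B and C of W27 and A and B of VIN7 at 12 °C and below 0 on array C of VIN7 at 28 °C, whereas on array A of W27 at 12 °C all members are above 0.

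The members had 678 of 684 possible values, and 52 members had a value on all 12 arrays. On array A of W27 at 12 °C all 57 members were above 0, between 0.05 and 2.25, although 52.4% of all ORFs were above 0 there. On arrays B and C of the same group 35 of 56 and 47 of 57 members were below 0. The median over the members was 0.77 on A, -0.40 on B and -0.75 on C, so the level of the list in this group depended on the array. The standard deviation over all ORFs was 0.60 on A and 1.23 and 1.24 on B and C.

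Array C of VIN7 at 28 °C also stood apart. Its median over the members was 1.87, with 46 members above and 11 below 0, and 64.9% of the members reached a 2-fold increase there against 26.5% of all ORFs. On arrays A and B of that group the medians were -0.10 and 0.44. Over all ORFs array C correlated below -0.3 with 4 of the 6 arrays at 12 °C, with r from -0.70 to -0.38, and no other of the 66 pairs of arrays did so. With arrays A and B of its own group it correlated at 0.06 each, and with array C of VIN7 at 12 °C at 0.10. Over the 57 members its lowest correlation was -0.89, with array C of W27 at 12 °C. With array C of VIN7 at 12 °C it was 0.05, and members are not independent replicates. Because the direction of this array has no settled sign, the main counts of members in VIN7 at 28 °C, and the values that rest on that array, are also given with its sign turned. Where no such value stands beside a result of that group, array C is as deposited.

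**Figure D2:**
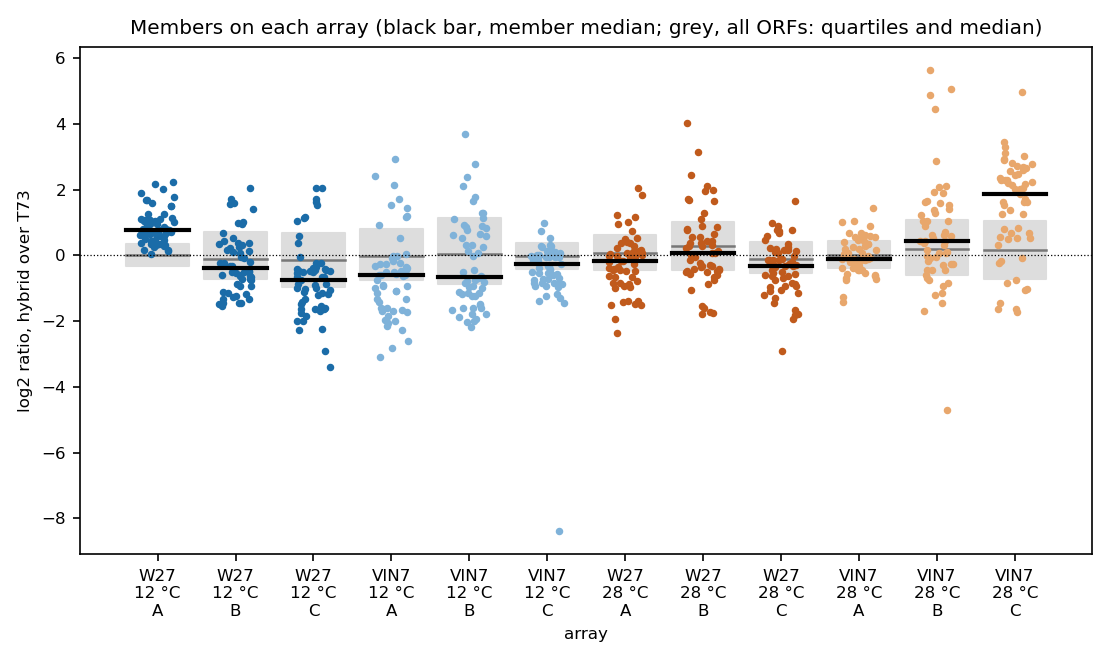
Members (points) on each array (horizontal axis) as log2 ratio of hybrid over T73 (vertical axis), with their median (black bar) and the quartiles and median of all ORFs (grey). Array A of W27 at 12 °C has every member above 0, and array C of VIN7 at 28 °C has the highest member median, 1.87.

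In W27 at 12 °C the rule of the study's methods, a median over at least 2 arrays and a 2-fold change, was passed by 5 members above T73 and by 12 below it. Among all ORFs 10.6% were 2-fold higher and 11.2% were 2-fold lower. YOR234C was the highest member, with values of 0.59, 2.06 and 1.71 on arrays A, B and C, a mean of 1.45 ± 0.77 (SD, n = 3). YMR242C had 0.34, 1.59 and 1.64 and a mean of 1.19 ± 0.74. Both were above 0 on every array, and both were lower on A than on B and C.

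The lowest members of W27 at 12 °C were YIL018W and YGL103W. YIL018W had 0.45, -1.53 and -2.23, and YGL103W had 1.10, -1.48 and -2.90. Both were thus above T73 on A and below it on B and C, and the spread over the arrays exceeded their means of -1.10 ± 1.39 and -1.09 ± 2.03. Of the 56 members with a value on all 3 arrays, 9 were above 0 on every array, against 21.9% of all ORFs, and 0 were below 0 on every array, against 25.1%. By limma 0 members had an adjusted p under 0.05 (0% of ORFs) and 3 had an unadjusted p under 0.05, all higher (14.7% of ORFs), namely YMR121C, YOR234C and YMR242C. The smallest adjusted p of a member was 0.315.

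The counts of W27 at 12 °C changed with single arrays. Without A, 8 members were 2-fold higher and 16 lower, with a median of -0.47, against 16.9% and 18% of all ORFs. Without B there were 6 and 1, with a median of 0.15 (7.78% and 10.4% of ORFs). Without C there were 5 and 0, with a median of 0.31 (9.46% and 5.35% of ORFs). The limma count at unadjusted p under 0.05 was 11 without A (19% of ORFs), 1 without B (4.92%) and 0 without C (4.22%). The share of all ORFs thus changed with the array as well. Over all 3 arrays the median was -0.24, against -0.06 for all ORFs.

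In VIN7 at 12 °C 7 members were 2-fold higher than T73 and 11 were 2-fold lower, against 13.9% and 11.9% of all ORFs. Of the 56 members on all 3 arrays, 25 were below 0 on every array, or 44.6%, against 21.8% of all ORFs. Above 0 on every array were 2 members, YMR121C and YMR242C, against 21.4% of all ORFs.

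YGL103W was the lowest member of VIN7 at 12 °C, with -3.10, -1.89 and -0.72 and a mean of -1.90 ± 1.19. YJL177W had -1.73, -1.77 and -0.84 and a mean of -1.45 ± 0.52. Both were below 0 on every array, with C the array nearest 0. By limma 0 members had an adjusted p under 0.05 (0.551% of ORFs) and 12 had an unadjusted p under 0.05, 4 higher and 8 lower (21% of ORFs). The share of members, 21.1%, was thus close to that of all ORFs. The adjusted p was 0.196 for YGL103W and 0.149 for YJL177W.

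Without array A of VIN7 at 12 °C 3 members were 2-fold higher and 12 lower, without B 2 and 17, and without C 8 and 19. The shares of all ORFs for these 2-fold counts are not given here, so they do not show changes particular to the members. The unadjusted count fell from 12 to 5 without A (11.9% of ORFs) and to 1 without B (7.64%), and without C it was 14 (26%). Without C, YMR121C and YMR142C passed the test, at 3.05 and 2.25 with adjusted p of 0.0330 and 0.0387 by limma. The array left out was the one on which both lay nearest T73, at 0.29 and -0.05.

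The 7 members that were 2-fold higher in VIN7 at 12 °C, YMR121C, YMR142C, YMR242C, YOR234C, YGR034W, YLR061W and YPL143W, were grouped after their values were seen and are described without a test. Of these, 5 were also 2-fold higher in W27 at 12 °C. Because the choice used the values of VIN7 at 12 °C, the height of the 7 in that group follows from it. On arrays B and C of W27 and A and B of VIN7 at 12 °C all 7 were above 0, with medians from 1.53 to 2.10, while the other members had medians from -0.94 to -0.52. Array A of W27 at 12 °C did not show this order: the 7 were above 0 there with a median of 0.59, below the median of 0.81 of the other 50, all of which were above 0. On array C of VIN7 at 12 °C the 7 lay between -0.23 and 0.29, with a median of -0.05 against -0.39 for the others. On array C of VIN7 at 28 °C all 7 were below 0, between -1.73 and -0.76, and they made up 7 of the 11 members below 0 there.

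YMR121C was the highest of them. It had 0.81, 1.57 and 2.04 in W27 at 12 °C and 2.42, 3.69 and 0.29 in VIN7 at 12 °C, and in W27 at 28 °C 1.85, 1.72 and 0.46. Its 9 values in these 3 groups were all above 0, whereas VIN7 at 28 °C gave 0.45, 0.44 and -1.44. The means were 1.48 ± 0.62, 2.13 ± 1.72, 1.34 ± 0.77 and -0.18 ± 1.09 (0.78 ± 0.57 with array C turned), and the adjusted p by limma were 0.327, 0.118, 0.464 and 0.904.

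YMR142C gave 0.43, 1.03 and 1.13 in W27 and 1.71, 2.79 and -0.05 in VIN7 at 12 °C. At 28 °C its means were -0.22 ± 0.32 and -0.03 ± 0.69, the latter 0.48 with array C turned. YGR034W gave 0.05, 1.73 and 1.18 in W27 and 1.21, 2.38 and -0.07 in VIN7 at 12 °C, and its means at 28 °C were 0.10 ± 0.96 and -0.58 ± 0.40, the latter 0.11 with C turned. YMR142C, YMR121C and YMR242C are, by their names, the 3 members on the right arm of chromosome XIII, and all 3 were 2-fold higher in both hybrids at 12 °C. The ORFs of that arm had medians of -0.10 in W27 and 0.01 in VIN7 at 12 °C. The other 4 lie on different arms.

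In W27 at 28 °C 3 members were 2-fold higher than T73 and 7 were 2-fold lower, against 7.76% and 6.08% of all ORFs. Of the 55 members on all 3 arrays, 7 were above 0 on every array, against 19% of all ORFs, and 15, or 27.3%, were below, against 14.6%. YMR121C and YGR148C had the highest medians. YGR148C gave 1.24, 2.12 and 0.13, all above 0, with a mean of 1.17 ± 1.00.

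YOL127W had the lowest median of W27 at 28 °C, with values of -2.35, -0.49 and -1.95 and a mean of -1.60 ± 0.98. YGL103W, with -1.92, -1.75 and -1.28, had a mean of -1.65 ± 0.33. YLR075W had the lowest mean, -2.03 ± 0.76, from -1.47, -1.72 and -2.90. All 3 were below 0 on every array, and their adjusted p by limma were 0.612, 0.513 and 0.418. By limma 0 members had an adjusted p under 0.05 (0.0324% of ORFs), and 2 had an unadjusted p under 0.05, YMR121C higher and YLR075W lower (10% of ORFs). This count of 2 ranged from 1 to 9 when any of the 12 arrays was left out. Without array C of VIN7 at 28 °C it was 9 (11.7% of ORFs). It was 6 with each array recentred (9.94% of ORFs) and 10 with the arrays scaled to the same spread (2 higher, 15.2% of ORFs). A fit of this group's arrays alone gave 10. Without array A 8 members were 2-fold higher, and without C 6. For that fit and these 2-fold counts the shares of all ORFs are not given here, so they do not show changes particular to the members. YGL103W, YOR063W and YLR075W were the 3 members that were 2-fold lower in W27 at both temperatures and in VIN7 at 12 °C.

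In VIN7 at 28 °C 18 members, or 31.6%, were 2-fold higher than T73 and 0 were lower, against 11.3% and 5.48% of all ORFs. With the sign of array C turned there were 1 and 7, with a median of -0.13, against 7.12% and 5.9% of all ORFs. Without C there were 8 and 3, with a median of 0.20 (14.6% and 5.57% of ORFs). Without A there were 31 and 3, with a median of 1.11 (22.2% and 10.2%). Without B there were 24 and 1, with a median of 0.79 (12.1% and 8.78%). The count and the sign of the list's level in this group thus depended on array C. Of the 55 members on all 3 arrays, 12 were above 0 on every array, against 19.9% of all ORFs, and 3 were below, against 13.3%. With C turned 3 were above and 9 below, against 12.6% and 12.5% of all ORFs.

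YBR031W and YLR029C had the highest medians of VIN7 at 28 °C. YBR031W gave 0.28, 2.88 and 2.47, a mean of 1.88 ± 1.40, which became 0.23 ± 2.67 with array C turned. YLR029C gave 0.90, 4.87 and 2.28, a mean of 2.68 ± 2.01, or 1.16 ± 3.58 with C turned. Both were above 0 on all arrays as deposited, lowest on A and highest on B. YFR031C-A had the highest mean, 2.71 ± 2.08, from 1.06, 5.05 and 2.01. Its mean was 3.05 without C and 1.36 with C turned, where YGR085C was higher at 1.85.

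The highest value of each hybrid at 28 °C was on array B. On it YGR085C gave 5.64 in VIN7 and 3.14 in W27, YLR029C gave 4.87 and 4.01, and YFR031C-A gave 5.05 and 1.95. On array A of the same groups these members lay between 0.10 and 1.18. The lowest medians of VIN7 at 28 °C belonged to YGL103W, with -0.75, -1.70 and 2.71, and to YLR061W, with 0.18, -0.69 and -1.62, neither of which kept 1 sign.

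By limma 0 members had an adjusted p under 0.05 in VIN7 at 28 °C (0.0162% of ORFs), and 10 had an unadjusted p under 0.05, all higher (13.9% of ORFs). With array C turned the unadjusted count was 7, of which 1 was higher (8.77% of ORFs). It was 6 without C (11.1%), 6 without B (8.53%) and 22 without A (18.5%). The smallest adjusted p of a member was 0.157, for YFR031C-A. Without array A 3 members passed: YBL092W at 3.35 (adjusted p = 0.0327), YBR031W at 2.67 (0.0476) and YFR031C-A at 3.53 (0.0476). Array A, left out here, was the array on which each of them lay nearest T73.

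The 2 hybrids were compared at each temperature through their ratios against T73. At 12 °C limma called 0 members (0% of ORFs), with 2 at an unadjusted p under 0.05, both lower in VIN7 (2.22% of ORFs). YFL034C-A was one of them, with 1.76 and -0.49 on the 2 arrays of W27 that measured it and -2.07, -1.24 and -0.76 in VIN7, a difference of -1.99 ± 0.91 (SE, adjusted p by limma, 1.00). The groups did not overlap, but without array A of W27 the difference was -0.86 ± 1.07. YKL180W was the other, with a mean of -0.02 ± 0.79 in W27 and -1.30 ± 0.35 in VIN7. The count of 2 was 0 without array A of W27 (2.33% of ORFs), without B of W27 (1.28%) and without B of VIN7 (0.907%). It was also 0 with the replicate block (2.15%) and without B of W27 at 28 °C, and 6 with the arrays scaled (2.91%). YOR312C had the largest difference, -2.57 ± 2.19, with a value of -8.39 on array C of VIN7. On arrays A and B of VIN7 it gave 2.93 and 0.08. On the positive side the largest differences were 0.66 ± 0.83 for YMR121C and 0.62 ± 0.68 for YMR142C.

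At 28 °C limma called 0 members between the hybrids (0% of ORFs), and 12 had an unadjusted p under 0.05, all higher in VIN7 (9.02% of ORFs). With array C of VIN7 turned the count was 1, YGR148C, which was lower in VIN7 (2.23% of ORFs). Without C it was 2, both higher (4.81%). YOL127W had a difference of 2.74 ± 1.37 as deposited, -0.57 with C turned and 0.83 without C. YBL092W had 2.73 ± 0.91, with -1.40, 0.02 and -0.22 in W27 and -0.10, 4.45 and 2.24 in VIN7, and the groups overlapped. Its difference was 1.24 with C turned and 2.71 without C, so it kept its direction. The largest negative differences were -1.52 ± 0.83 for YMR121C and -1.45 ± 2.19 for YOR312C. With C turned they were -0.57 and -1.30, and YGR148C had the most negative, -2.04.

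Between temperatures W27 had 0 members called by limma (0% of ORFs) and 1 at an unadjusted p under 0.05 (5.7% of ORFs). This was YMR242C, above 0 on the 3 arrays at 12 °C and below 0 on the 3 at 28 °C (-0.17, -0.36 and -1.20), a difference of -1.76 ± 0.63 with an adjusted p of 0.751. In VIN7 the same ORF gave 1.53, 1.30 and 0.02 at 12 °C and -0.56, -0.31 and -1.73 at 28 °C, again without overlap, a difference of -1.81 ± 0.63 (adjusted p by limma, 0.180). With array C turned its difference in VIN7 was -0.66.

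In VIN7 limma called 0 members between temperatures (0% of ORFs), and 25, or 43.9%, had an unadjusted p under 0.05, 19 higher and 6 lower at 28 °C (19.7% of ORFs). With every array scaled to the same spread there were 11, or 19.3%, against 13.9% of ORFs. The 6 lower members all belonged to the 7 that were high at 12 °C. Those 7 were chosen by their values in VIN7 at 12 °C, which this difference subtracts, so the choice alone favours the overlap. With array C of VIN7 at 28 °C turned the count was 0 (4.02% of ORFs), and without it 10, all higher (10.1%). Without array A or B of VIN7 at 12 °C it was 13 or 15 (11.4% and 12.1% of ORFs). With the replicate letter as a block the count was 22 in the fit of all arrays (19.6% of ORFs). A fit of the VIN7 arrays alone with this block gave 32 (29%), and 0 members were called in either. YLL045C had the smallest p, with -1.33, -1.59 and -0.73 at 12 °C and 0.57, 1.90 and 2.18 at 28 °C. The groups did not overlap, and the difference was 2.77 ± 0.69 (adjusted p by limma, 0.175), 1.31 with C turned and 2.45 without C. YHL033C, listed beside it as the other copy of the same protein, gave -0.24, -1.47 and -0.50 at 12 °C and 0.06, 2.08 and 2.15 at 28 °C, a difference of 2.17 ± 0.72 (adjusted p by limma, 0.178), or 0.74 with C turned.

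**Figure D3:**
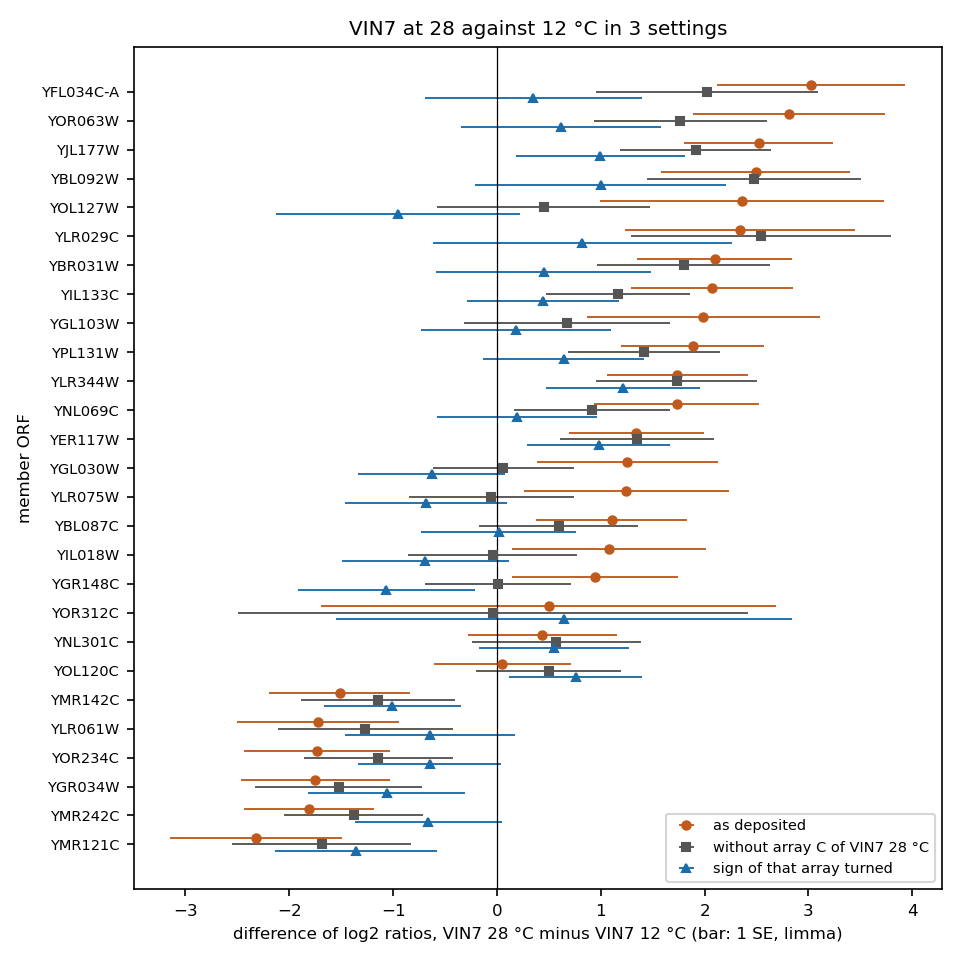
Difference of log2 ratios between VIN7 at 28 and at 12 °C (horizontal axis, bars of 1 SE from limma) for the 27 members named by rule (vertical axis), as deposited, without array C of VIN7 at 28 °C and with its sign turned. YMR121C lies at -2.32 and YFL034C-A at 3.02 as deposited, and for most members the turned values lie nearer 0.

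In the interaction of hybrid and temperature limma called 0 members (0% of ORFs), and 10 had an unadjusted p under 0.05, all with a larger difference between temperatures in VIN7 (3.38% of ORFs). With array C of VIN7 at 28 °C turned the count was 1, YGR148C at -2.61, in the opposite direction (2.19% of ORFs). The count was 6 without C, all in the first direction (2.59%), and 3 without array A of W27 at 12 °C (2.06%). It was 5 without B of VIN7 at 12 °C (2.59%) and 17 without A of VIN7 at 28 °C (7.07%). YFL034C-A had the largest estimate, 4.11 ± 1.28, and YOR063W had 3.92 ± 1.31, each with an adjusted p of 0.925 by limma. With C turned these estimates were 1.43 and 1.72, and without C 3.10 and 2.87.

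The list holds 8 proteins entered once, of which 7 were measured. YOR063W gave 1.68, -1.26 and -1.17 in W27 and -1.69, -2.19 and -0.97 in VIN7 at 12 °C. At 28 °C it gave -1.52, -0.74 and -1.81 in W27 and -0.13, 0.44 and 3.30 in VIN7. It was thus below T73 on all arrays of VIN7 at 12 °C and of W27 at 28 °C, and on neither side throughout in the other groups. YPL131W showed the same signs in these groups, with means of 0.27 ± 1.15, -0.96 ± 0.65, -0.75 ± 0.39 and 0.93 ± 1.01 for W27 and VIN7 at 12 °C and W27 and VIN7 at 28 °C, the last -0.32 with array C turned.

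YLR075W and YGL030W were below 0 on all arrays of VIN7 at 12 °C and of W27 at 28 °C as well. In VIN7 at 12 °C their means were -0.95 ± 0.75 and -0.81 ± 0.35. On arrays A and B of VIN7 at 28 °C they gave -1.43 and -0.58, and -1.25 and -0.25, against 2.90 and 2.82 on C. YOL127W had the most extreme pair of values among them, -3.40 on array C of W27 at 12 °C and 4.97 on array C of VIN7 at 28 °C. YBL092W had means near T73 in both hybrids at 12 °C, 0.06 ± 0.78 and -0.29 ± 0.38.

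The other 50 listed members form 25 pairs of copies, matched by their place in the list and not by the files, and all pairs had both copies measured. The absolute difference between the copies' group means, averaged over the 4 groups, had a median of 0.51 and ranged from 0.19 to 1.53, or a median of 0.42 and 0.15 to 1.35 with array C of VIN7 at 28 °C turned. The order of the pairs below is that with array C as deposited. For the 1571 pairs of members that are not copies of each other the median was 0.76. This value is given only with array C as deposited, so it stands beside 0.51 and not beside 0.42. How far cross-hybridization contributed to the likeness of copies was not tested, since no sequence was used here.

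YIL133C and YNL069C were the copies least apart, at 0.19. In VIN7 at 12 °C they gave -1.69, -1.77 and -0.87 against -1.98, -0.93 and -0.26, and on array C of VIN7 at 28 °C 2.44 against 2.30. YBL087C and YER117W were 0.24 apart, with means of 0.62 ± 1.00 and 0.56 ± 0.04 in VIN7 at 28 °C, or -0.47 and 0.20 with array C turned. YOL120C and YNL301C were 0.25 apart and had the highest values of all members on array A of W27 at 12 °C, 2.17 and 2.25. On the other arrays of that group they gave -0.06 and 0.37, and -0.62 and -0.05.

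YLR061W and YFL034C-A were the copies furthest apart, at 1.53. In VIN7 YLR061W gave 1.16, 2.10 and -0.23 at 12 °C and YFL034C-A was below 0 on each array, and at 28 °C the order was reversed, with means of -0.71 ± 0.90 and 1.67 ± 1.42. With array C turned YLR061W, at 0.37 ± 1.17, was again above YFL034C-A. Without array C the means were -0.26 for YLR061W and 0.67 for YFL034C-A, the latter from array A alone. Turning array C thus undid the reversal, whereas leaving it out did not. YLR029C and YMR121C were 1.52 apart. YLR029C gave -0.34, 0.83 and 0.53 in VIN7 at 12 °C, where YMR121C had a mean of 2.13, and in VIN7 at 28 °C YLR029C was the higher by 2.87, by 0.39 with array C turned and by 2.44 without it.

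YLR344W and YGR034W were 1.16 apart and had the same sign on 3 of 12 arrays. In VIN7 at 12 °C YLR344W gave -0.31, -1.99 and -0.59 and YGR034W 1.21, 2.38 and -0.07, so that the copies did not overlap. In each of these 3 pairs 1 copy was among the 7 members high at 12 °C. Both choices used the values of VIN7 at 12 °C, so they favour this overlap by themselves. The number of pairs whose means were at least 2-fold apart was 2 in W27 and 5 in VIN7 at 12 °C, and 4 in W27 and 7 in VIN7 at 28 °C, where it was 5 with array C turned and 6 without it. YPL143W and YOR234C, a pair in which both copies were among those 7, had the same sign on 11 of 12 arrays.

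**Figure D4:**
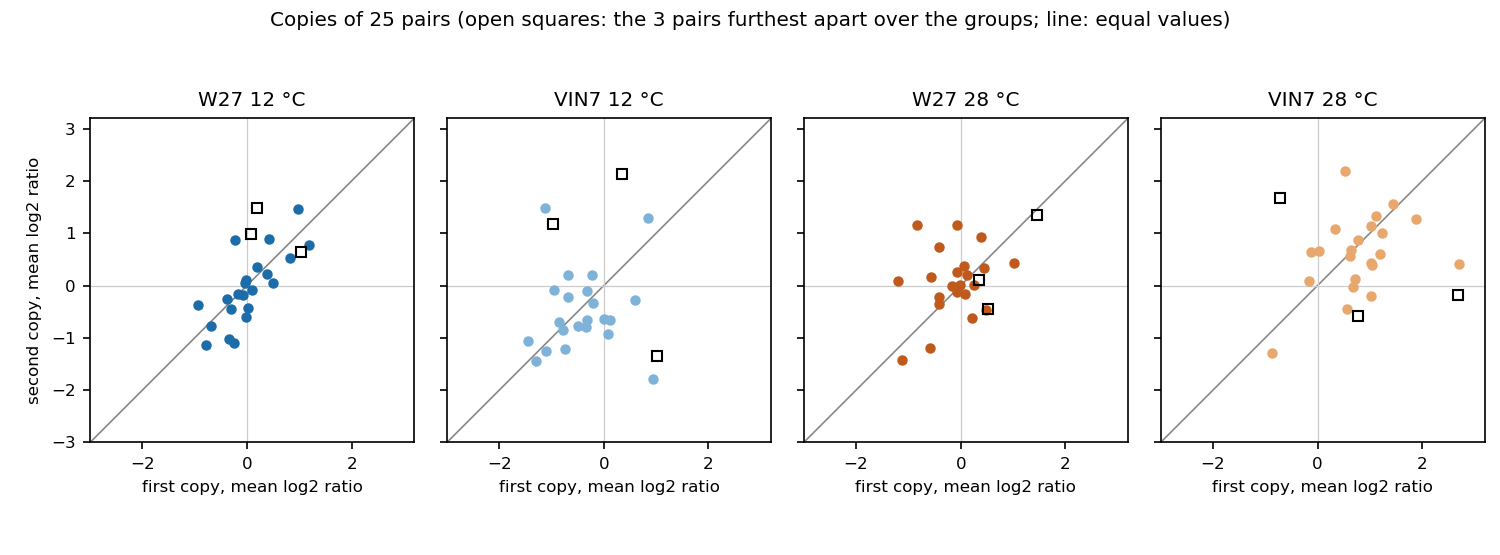
Group means of log2 ratios for the first (horizontal axis) and second copy (vertical axis) of 25 pairs in each group. Open squares mark the 3 pairs furthest apart, and the line marks equal values. In VIN7 at 12 °C 5 pairs are at least 2-fold apart and in VIN7 at 28 °C, with array C as deposited, 7.

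With all values as deposited 39 of the 57 members, or 68.4%, passed the 2-fold rule in at least 1 group, against 50.7% of all ORFs. With array C of VIN7 at 28 °C turned there were 30, or 52.6%, against 46.2%, and over the other 3 groups alone 28, or 49.1%, against 42.4%. The 18 that did not pass as deposited had group medians between -0.94 and 0.99. They were YML073C, YPL198W, YPR102C, YEL054C, YDR418W, YHL001W, YOL120C, YNL301C, YOR312C, YPL079W, YBL087C, YER117W, YGL031C, YLR344W, YHR010W, YDR471W, YGL030W and YLR406C. YHR010W had group means within 0.07 of T73, with SDs of 0.91, 0.62, 0.51 and 0.49.

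Position, read from the systematic names, was compared for the 3 arms with 5 or more members, in the groups other than VIN7 at 28 °C. The 6 members on the left arm of chromosome VII had a median of -1.19 in W27 and -0.85 in VIN7 at 12 °C and of -0.95 in W27 at 28 °C, where the ORFs of that arm had -0.27, -0.21 and -0.07. The 6 members on the right arm of chromosome XII had -0.42, 0.06 and 0.33 in the same groups, where the ORFs of that arm had -0.06, -0.02 and 0.03. The 5 members on the left arm of chromosome XVI had -0.23, -0.60 and -0.66, where the ORFs of that arm had -0.10, -0.05 and 0.03. The part of the arm in the members' values was not tested.

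The rest of the large subunit (22 ORFs) and the small subunit (56 ORFs) were set beside the members by counts only. In VIN7 at 28 °C, with array C as deposited, 4 and 19 of them were 2-fold higher and 0 and 1 lower, with medians of 0.42 and 0.31 beside 0.47 for the members. With C turned 0 and 1 were higher and 0 and 3 lower, with medians of -0.35 and -0.11 beside -0.13. In VIN7 at 12 °C 0 and 2 were higher and 6 and 8 lower, with medians of -0.28 and -0.24 beside -0.54. In W27 at 12 °C 0 of both lists were 2-fold higher, against 5 members (8.77%) and 10.6% of all ORFs. There 4 of each list were lower (18.2% and 7.14%), against 12 members (21.1%) and 11.2% of all ORFs. In W27 at 28 °C 0 and 1 were higher and 1 and 5 lower, against 3 and 7 members. Of 6 regulators of ribosomal protein genes 1 was 2-fold lower in VIN7 at 28 °C (0 with array C turned) and 1 was 2-fold higher in W27 at 28 °C. Of 5 chaperones of large subunit proteins 1 was 2-fold higher in each hybrid at 12 °C. By limma 0 ORFs of these 4 lists were called in the 9 comparisons, and at an unadjusted p under 0.05 up to 16 of the small subunit and 7 of the rest of the large subunit were counted, both between temperatures in VIN7 (19.7% of ORFs). With array C of VIN7 at 28 °C turned 0 of both lists were counted there (4.02% of ORFs), and without it 8 and 1 (10.1%).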

How the data were processed

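The authors deposited 1 table of log2 ratios, 1 value per ORF and array. Per the study's methods, the authors took off a global background, normalized every array, dropped spots not found and made manual print tip corrections. The ratio's direction is not given in the sources used here. No spot intensities were used, and precision is limited by the number of arrays. Here 2 control features were left out, the sign was turned to hybrid over T73, and the 57 members found were described beside all 6178 ORFs. Each array measured 5815 to 6178 ORFs. All ORFs were fitted with limma (version 3.58.1, under R 4.3.3) in a single model of 4 group means, with eBayes, two-sided tests and Benjamini-Hochberg adjustment over all ORFs, for each group against 0, between hybrids, between temperatures and for their interaction. The fit was tested on simulated data. The members and lists were chosen with earlier results of these data known.

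Members were given in full by a rule: the 2 highest and 2 lowest medians of each group, the 2 largest differences in each direction between hybrids at each temperature, the members entered once, the 3 pairs of copies furthest and the 3 least apart, and any called member. Others are named where a count or comparison turns on them, after their values were seen. Pairs and lists come from general knowledge of the names. Deviations from the group means of same-letter arrays correlated over 0.1 in all 3 pairs only for VIN7 at 12 against 28 °C (0.22 to 0.57). With array C at 28 °C turned these correlations were -0.40 to 0.05. The estimates given with an SE or an adjusted p are unpaired. A pairing by letter, read from the data and not from the labels, was fitted only as an alternative, over all arrays and within VIN7. Alternatives were recentring, scaling, turning array C of VIN7 at 28 °C, complete values, means, a 1.5-fold threshold, a replicate block, a robust prior, only the arrays compared, clipped extremes and leaving out each array. The block within VIN7 was added after seeing the data. Tables and figures were made with Python, pandas, numpy and matplotlib.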

Additional observations from a re-analysis of the deposited data

How the results depend on the processing

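Array spread and the unsettled direction of array C of VIN7 at 28 °C limit every count, and spot signals were not used. Members called by limma stayed at 0 under every planned setting except that leaving out 1 array gave 0 to 2 in VIN7 at 12 °C and 0 to 3 in VIN7 at 28 °C against T73. With the replicate block 0 members were called in each of the 9 comparisons, as in VIN7 alone, and the letters were not shown to pair other groups. Leaving out 1 array, members 2-fold higher ranged from 5 to 8 in W27 and 2 to 8 in VIN7 at 12 °C and from 2 to 8 in W27 and 8 to 31 in VIN7 at 28 °C, and members 2-fold lower from 0 to 16, 12 to 19, 7 to 8 and 1 to 3. Scaling each array to the same spread gave 8, 3, 5 and 10 higher in that order, and 11 lower in W27 and 1 lower in VIN7 at 28 °C. Means in place of medians gave 5 lower in W27 at 12 °C, 5 higher in W27 at 28 °C and 1 lower in VIN7 at 28 °C. The 1.5-fold threshold gave 11 higher and 20 lower in W27 at 12 °C, 27 lower in VIN7 at 12 °C, 6 higher and 15 lower in W27 at 28 °C and 3 lower in VIN7 at 28 °C. These 2-fold and 1.5-fold counts stand here without the shares of all ORFs in the same settings, so they do not show changes particular to the members. Turning array C gave 1 higher and 7 lower in VIN7 at 28 °C, and 20 of 27 named means changed sign. Medians over the members ranged, without 1 array, from -0.47 to 0.31 in W27 and -0.66 to -0.47 in VIN7 at 12 °C and from -0.14 to 0.00 in W27 and 0.20 to 1.11 in VIN7 at 28 °C. Scaling also gave unadjusted counts of 6, 7, 10 and 6 against T73 in that order (19.3%, 17.7%, 15.2% and 11.7% of ORFs). It gave 6 between hybrids at 12 °C (2.91%), 5 between temperatures in W27 (8.55%) and 11 in VIN7 (13.9%). Of the 2-fold counts, medians and counts of called members 33 values moved by more than 1 SD or 1.5 times over the settings and 243 did not, and of the values of named members and the unadjusted counts 74 moved and 674 did not. The cause of these changes was not tested.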
